A study of Ovis aries with 12 samples.

Results

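The genes of glycolysis, of glucose and lactate transport and of the response to low oxygen were followed in bulk RNA-seq of sheep embryos (Ovis aries). The 38 genes were a named list: 2 hexokinases, 7 genes of upper glycolysis, 2 makers of fructose 2,6-bisphosphate, 6 genes of lower glycolysis, 3 genes that set the fate of pyruvate, 4 membrane carriers, 4 oxygen-response factors and sensors, and 10 hypoxia-induced genes. Of these, 31 carried their symbol in the deposited table. The other 7 (ALDOA, PGAM1, ENO1, LDHA, LDHB, SLC16A1 and BNIP3L) were found through the NCBI gene number in the table. All 38 were among the 14595 genes tested, of 26247 in the table, and no listed gene had 0 counts in any library.

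Cells break glucose down to pyruvate in the cytosol, and where oxygen is short, or where they grow fast, they turn pyruvate into lactate and export it. When oxygen falls, the prolyl hydroxylases that mark hypoxia-inducible factors (HIFs) for destruction slow down, and HIFs then switch on glucose carriers, glycolytic enzymes, lactate dehydrogenase A, the lactate exporter SLC16A3 and genes such as VEGFA, BNIP3 and CA9. From about implantation until the heart and the placental circulation are established, mammalian embryos rely heavily on glycolysis.

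The study set Hulunbuir short-tail sheep, its experimental breed, against Ujumqin sheep as the control. Both are Mongolian breeds. Embryos of each breed were taken at day 25 and at day 16 of age and dissociated by enzymes into cells before RNA was extracted. There were 3 libraries for each of the 4 groups: Hulunbuir day 25, Hulunbuir day 16, Ujumqin day 25 and Ujumqin day 16. The sources used here do not tie the 3 libraries of a group to separate animals. Every p-value therefore rests on library-to-library spread, and that spread may be technical.

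Total counts per library were 32625184 to 39643588 in Hulunbuir day 25, 43131962 to 51241161 in Hulunbuir day 16, 30464606 to 33171681 in Ujumqin day 25 and 49944437 to 55455815 in Ujumqin day 16 embryos. Replicates varied more at day 16 than at day 25, with a biological coefficient of variation of 43.76% among the 6 libraries of day 16 and 18.07% among the 6 of day 25. Differences between the breeds were therefore fitted within each age, and changes with age over all 12 libraries. FPKM are the deposited values, per kilobase of gene and scaled by library size. Each log2 change comes from edgeR's quasi-likelihood test on TMM-scaled counts, given with its standard error (SE, after the ± sign) and a p adjusted over all 14595 genes, and a gene is called where that p is under 0.05. Red-cell transcripts took up far more of the Hulunbuir day 25 libraries than of the others (12 erythroid markers summed to 16395 to 19332 FPKM in Hulunbuir day 25, 76.7 to 166 in Hulunbuir day 16, 1961 to 2461 in Ujumqin day 25 and 932 to 4226 FPKM in Ujumqin day 16 embryos). The choice of scaling mattered between the breeds at day 25. The median log2 change of all genes, Hulunbuir minus Ujumqin, was 0.03 with TMM and 0.35 with library totals alone. The part of red-cell transcripts in that shift was not tested. In whole embryos, fewer cells of a type and less RNA per cell cannot be told apart.

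Most of the listed genes fell between day 16 and day 25 in both breeds. In Hulunbuir embryos 29 of the 38 fell with age and 1, BNIP3L, rose, where 21.6% of all tested genes fell and 18.9% rose. In Ujumqin embryos 27 fell and 3 (ENO2, LDHB and DDIT4) rose, where 32.9% of all tested genes fell and 30.7% rose. The median log2 change of the 38 was -1.53 in Hulunbuir and -1.20 in Ujumqin, against -0.04 and -0.07 over all genes. A fall in both breeds was called for 24 of the 38, and for 17.5% of all tested genes. Library totals alone moved the median of all genes to 0.14 in Hulunbuir and -0.16 in Ujumqin. With them 26 of the 38 fell and 1 rose in Hulunbuir, and 29 fell and 3 rose in Ujumqin. Of the 14595 tested genes, 2144 fell and 3454 rose in Hulunbuir with that scaling, and 5023 fell and 4013 rose in Ujumqin. Of all genes called in Hulunbuir, 46.64% rose with TMM and 61.7% with library totals. Counting the 31 genes named in the table, 24 fell and 0 rose in Hulunbuir, and 22 fell and 2 rose in Ujumqin. As a share of all FPKM, the 38 genes made up 0.864 to 0.891% in Hulunbuir day 25 embryos against 2.15 to 2.9% at day 16, and 0.762 to 0.819% in Ujumqin day 25 embryos against 1.25 to 2.03% at day 16.

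**Figure D1:**
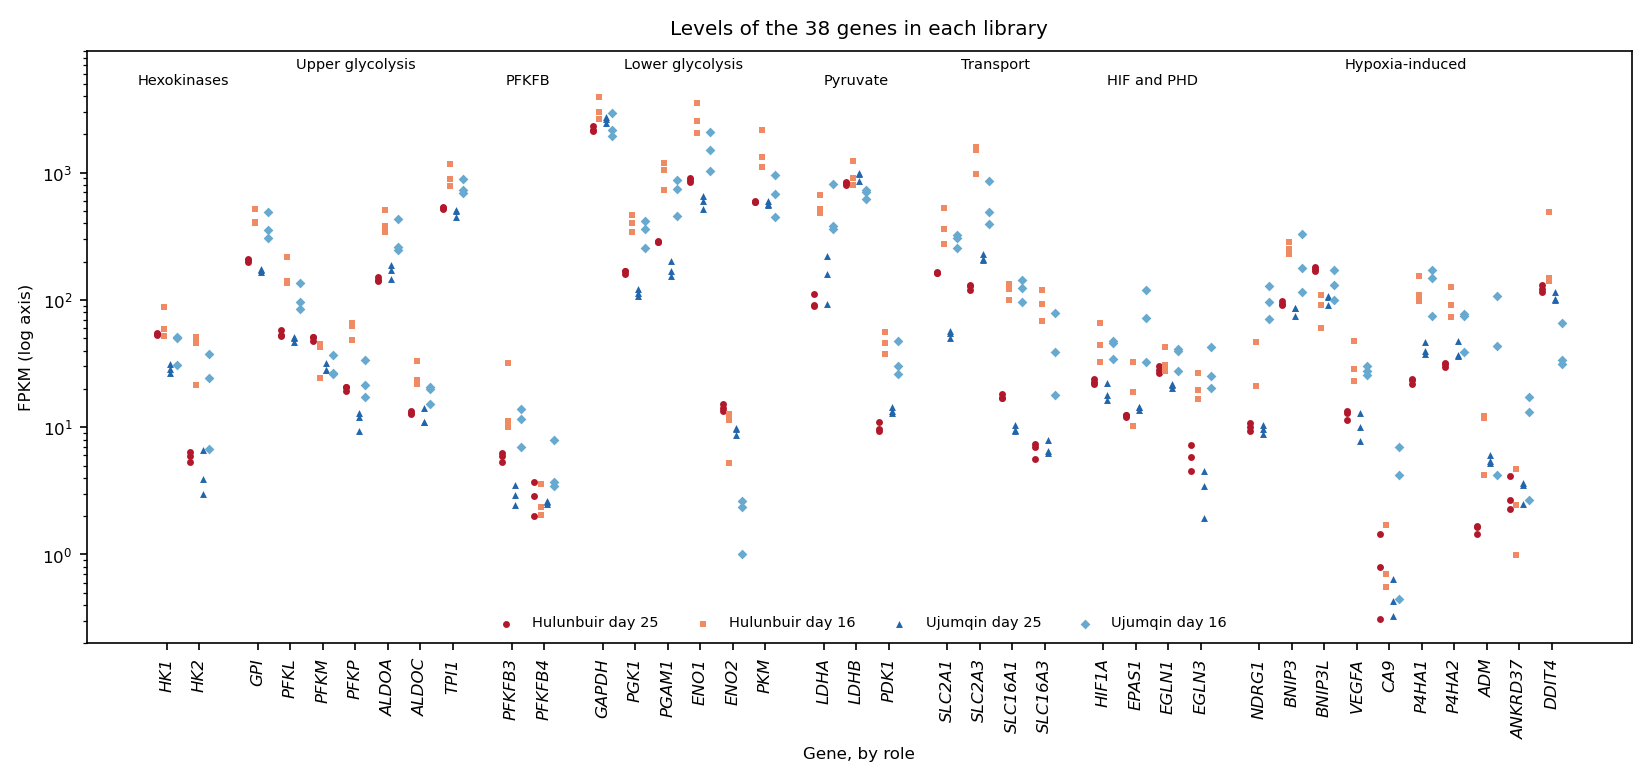
FPKM on a log axis of the 38 genes in each of the 12 libraries, ordered by role; each point is 1 library and each group has 3. The day 25 points of most genes lie below the day 16 points of the same breed, whereas those of BNIP3L, ENO2 and PFKM in Hulunbuir and of ENO2, LDHB and DDIT4 in Ujumqin lie above their day 16 points.

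The 4 carriers fell with age in both breeds, and SLC16A3, SLC2A3 and SLC16A1 had the steepest falls of the listed genes in Hulunbuir. SLC16A3 encodes MCT4, a carrier that exports lactate from glycolytic cells. It had 5.60, 7.05 and 7.36 FPKM in Hulunbuir day 25 embryos, against 119.6, 93.3 and 67.7 FPKM at day 16. The Ujumqin embryos had 7.87, 6.24 and 6.54 FPKM at day 25, against 79.1, 17.8 and 38.8 FPKM at day 16. All day 25 libraries were low and none overlapped with day 16 of its breed. The log2 change with age was -3.99 ± 0.48 (adjusted p = 0.00014) in Hulunbuir and -2.58 ± 0.45 (adjusted p = 0.000476) in Ujumqin.

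SLC16A1 encodes MCT1, which carries lactate and pyruvate in either direction. SLC16A1 levels were 16.8, 16.9 and 18.1 FPKM in Hulunbuir at day 25, against 134, 99.3 and 121 FPKM at day 16. In Ujumqin they were 9.28, 10.4 and 9.48 FPKM at day 25, against 142, 124 and 96.4 FPKM at day 16. The ages were far apart in both breeds. The log2 change was -2.93 ± 0.18 (adjusted p = 4.2e-06) in Hulunbuir and -3.50 ± 0.19 (adjusted p = 6e-07) in Ujumqin. The table lists an entry described as a monocarboxylate transporter 1-like gene beside SLC16A1, and how reads shared by such copies were counted is not given in the sources used here. This holds for retrocopies of GAPDH, PGK1, TPI1 and LDHA as well.

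SLC2A3 encodes GLUT3, a high-affinity glucose carrier. It had 129.8, 119 and 128 FPKM in Hulunbuir day 25 embryos, against 1507, 974 and 1587 FPKM at day 16. In Ujumqin embryos SLC2A3 had 230.4, 208 and 207 FPKM at day 25, against 862, 489 and 395 FPKM at day 16. The fall was seen in both breeds without overlap and was steeper in Hulunbuir. Its log2 change was -3.57 ± 0.28 (adjusted p = 1.25e-05) in Hulunbuir and -1.31 ± 0.26 (adjusted p = 0.00115) in Ujumqin. SLC2A1 encodes GLUT1, the broadly expressed glucose carrier that is also abundant on red cells. SLC2A1 had 164, 167 and 163 FPKM in Hulunbuir day 25 embryos, against 525, 359 and 277 FPKM at day 16. Ujumqin embryos had 57.3, 55.3 and 50.6 FPKM of it at day 25, against 326, 308 and 255 FPKM at day 16. Here the lowest libraries were those of Ujumqin day 25. The log2 change of SLC2A1 was -1.41 ± 0.23 (adjusted p = 0.000885) in Hulunbuir and -2.32 ± 0.24 (adjusted p = 1.57e-05) in Ujumqin.

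The 2 hexokinases, which trap glucose in the cell by phosphorylating it, did not move alike. HK2, the inducible form, had 6.35, 5.93 and 5.32 FPKM in Hulunbuir day 25 embryos, against 45.6, 21.5 and 51.1 FPKM at day 16. In Ujumqin it had 6.60, 3.94 and 2.99 FPKM at day 25, against 37.3, 6.70 and 24.2 FPKM at day 16. Hulunbuir ages were well apart, whereas the lowest Ujumqin day 16 library lay just above the highest day 25 one. HK2 fell by 2.86 ± 0.51 (adjusted p = 0.00142) on the log2 scale in Hulunbuir and by 2.20 ± 0.50 (adjusted p = 0.00267) in Ujumqin. HK1, the housekeeping form, had 55.3, 52.6 and 53.9 FPKM in Hulunbuir day 25 embryos, against 87.7, 52.1 and 59.2 FPKM at day 16. Ujumqin levels of HK1 were 31.5, 28.5 and 26.5 FPKM at day 25, against 51.2, 30.8 and 50.5 FPKM at day 16. The ages overlapped in both breeds. HK1 was not called, with a log2 change of -0.45 ± 0.21 (adjusted p = 0.104) in Hulunbuir and -0.47 ± 0.21 (adjusted p = 0.0671) in Ujumqin. It was called without the third Hulunbuir day 16 library (adjusted p = 0.0432), and in Ujumqin with library totals (adjusted p = 0.0396) or without the second day 16 library (adjusted p = 0.0137).

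In upper glycolysis 6 of 7 genes fell in Hulunbuir and 5 of 7 in Ujumqin. TPI1, which interconverts the triose phosphates, had 532, 538 and 517 FPKM in Hulunbuir day 25 embryos, against 1174, 885 and 790.3 FPKM at day 16. In Ujumqin TPI1 had 449, 513 and 502 FPKM at day 25, against 884, 691 and 728 FPKM at day 16. Its ages did not overlap, and its log2 change was -1.02 ± 0.19 (adjusted p = 0.00182) in Hulunbuir and -0.51 ± 0.19 (adjusted p = 0.0324) in Ujumqin. ALDOA, the main aldolase outside liver and brain, had 139.9, 151 and 143 FPKM in Hulunbuir day 25 embryos, against 513, 339.8 and 382 FPKM at day 16. Ujumqin embryos had 147, 187 and 173 FPKM of ALDOA at day 25, against 432, 247 and 262 FPKM at day 16. Both breeds were lower at day 25, with a log2 change of -1.67 ± 0.24 (adjusted p = 0.000418) in Hulunbuir and -0.75 ± 0.24 (adjusted p = 0.0161) in Ujumqin. The Ujumqin calls of TPI1 and ALDOA were lost without the first day 16 library (adjusted p 0.0951 and 0.065) or without the first day 25 library (adjusted p 0.0847 and 0.0516).

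Of the 3 phosphofructokinases, which commit sugar to glycolysis, the liver form PFKL and the platelet form PFKP fell and the muscle form PFKM did not pass the test. PFKP had 20.6, 19.2 and 20.5 FPKM in Hulunbuir day 25 embryos, against 62.7, 65.9 and 48.4 FPKM at day 16, and its log2 change was -1.74 ± 0.27 (adjusted p = 0.000644). In Ujumqin PFKP had 9.41, 13.0 and 12.04 FPKM at day 25, against 33.7, 17.2 and 21.6 FPKM at day 16, a log2 change of -0.93 ± 0.27 (adjusted p = 0.0104). PFKP stood without overlap between the ages of either breed. PFKM had 47.5, 50.7 and 50.7 FPKM in Hulunbuir day 25 embryos, against 43.0, 24.3 and 45.3 FPKM at day 16. Its Ujumqin levels were 31.8, 28.2 and 28.0 FPKM at day 25, against 37.2, 26.9 and 26.1 FPKM at day 16. All 3 Hulunbuir day 25 libraries were the higher ones, and the Ujumqin ages overlapped. PFKM had a log2 change of 0.28 ± 0.18 (adjusted p = 0.247) in Hulunbuir and 0.10 ± 0.18 (adjusted p = 0.655) in Ujumqin. Among the others, GPI, the isomerase of glucose 6-phosphate, fell by 1.29 ± 0.20 (adjusted p = 0.000604) in Hulunbuir and 1.03 ± 0.20 (adjusted p = 0.000902) in Ujumqin on the log2 scale. PFKL fell by 1.77 ± 0.23 (adjusted p = 0.000223) in Hulunbuir and 0.96 ± 0.23 (adjusted p = 0.00323) in Ujumqin. ALDOC, the brain aldolase, fell by 1.17 ± 0.21 (adjusted p = 0.00164) in Hulunbuir and had a log2 change of -0.49 ± 0.21 (adjusted p = 0.0628) in Ujumqin, which did not pass. With library totals ALDOC was called in Ujumqin as well (adjusted p = 0.0246).

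PFKFB3 and PFKFB4 make fructose 2,6-bisphosphate, the strongest activator of phosphofructokinase. PFKFB3 had 5.89, 5.36 and 6.29 FPKM in Hulunbuir day 25 embryos, against 11.3, 9.97 and 31.7 FPKM at day 16. In Ujumqin it had 3.53, 2.46 and 2.94 FPKM at day 25, against 11.5, 7.02 and 13.9 FPKM at day 16. The ages stayed apart, although the third Hulunbuir day 16 library was much higher than the other two. The log2 change of PFKFB3 was -1.68 ± 0.35 (adjusted p = 0.00329) in Hulunbuir and -1.71 ± 0.35 (adjusted p = 0.00146) in Ujumqin. PFKFB4 had 3.69, 2.004 and 2.86 FPKM in Hulunbuir day 25 embryos, against 2.37, 2.03 and 3.61 FPKM at day 16. In Ujumqin PFKFB4 had 2.63, 2.57 and 2.51 FPKM at day 25, against 3.47, 7.93 and 3.74 FPKM at day 16. It overlapped in Hulunbuir and was not called, with -0.04 ± 0.36 (adjusted p = 0.948) on the log2 scale there and -0.85 ± 0.36 (adjusted p = 0.0605) in Ujumqin. The Ujumqin change was called without the first or the third day 16 library (adjusted p 0.0314 and 0.0307).

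Lower glycolysis split into genes that fell in both breeds and genes that did not. PGAM1, which moves the phosphate of phosphoglycerate, had 288, 286 and 286 FPKM in Hulunbuir day 25 embryos, against 1193, 726 and 1049 FPKM at day 16. Ujumqin embryos had 155, 204 and 169.6 FPKM of PGAM1 at day 25, against 879, 457 and 742 FPKM at day 16. The ages were far apart, with a log2 change of -1.93 ± 0.23 (adjusted p = 0.000136) in Hulunbuir and -1.83 ± 0.23 (adjusted p = 5e-05) in Ujumqin. ENO1, the ubiquitous enolase, had 849, 913 and 878 FPKM in Hulunbuir day 25 embryos, against 3535, 2054 and 2552 FPKM at day 16. In Ujumqin ENO1 had 517, 657 and 603 FPKM at day 25, against 2095, 1032 and 1496 FPKM at day 16. Again no day 25 library reached a day 16 one. ENO1 fell by 1.78 ± 0.26 (adjusted p = 0.000441) on the log2 scale in Hulunbuir and by 1.23 ± 0.26 (adjusted p = 0.00156) in Ujumqin. PGK1, which makes the first ATP of the pathway, fell by 1.43 ± 0.17 (adjusted p = 0.000136) in Hulunbuir and 1.46 ± 0.17 (adjusted p = 3.13e-05) in Ujumqin.

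GAPDH, which oxidises glyceraldehyde 3-phosphate and was the most abundant of the 38 genes, had 2116, 2343 and 2176 FPKM in Hulunbuir day 25 embryos, against 3928, 2620.5 and 2978 FPKM at day 16. In Ujumqin it had 2466, 2744 and 2639 FPKM at day 25, against 2954, 2170.5 and 1951 FPKM at day 16. Only the Hulunbuir ages stood apart. The log2 change of GAPDH was -0.68 ± 0.21 (adjusted p = 0.0216) in Hulunbuir, a call lost with library totals (log2 change -0.49, adjusted p = 0.0623) and without any 1 of 4 Hulunbuir libraries (adjusted p 0.0501 to 0.0744), and 0.28 ± 0.20 (adjusted p = 0.24) in Ujumqin. PKM, the pyruvate kinase of most tissues, had 589.9, 601 and 583 FPKM in Hulunbuir day 25 embryos, against 2169, 1108 and 1329.6 FPKM at day 16. Ujumqin embryos had 569, 599.6 and 553 FPKM of PKM at day 25, against 959, 445 and 680.3 FPKM at day 16. Hulunbuir day 16 was high and the 2 Ujumqin ages overlapped. PKM changed by -1.53 ± 0.28 (adjusted p = 0.00173) on the log2 scale in Hulunbuir and by -0.14 ± 0.28 (adjusted p = 0.684) in Ujumqin.

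ENO2, the enolase of neurons, did not fall. It had 13.5, 15.3 and 14.1 FPKM in Hulunbuir day 25 embryos, against 11.3, 5.22 and 12.8 FPKM at day 16. In Ujumqin ENO2 had 9.71, 9.94 and 8.73 FPKM at day 25, against 2.64, 1.01 and 2.35 FPKM at day 16. Day 25 was higher without overlap in each breed. The log2 change of ENO2 was 0.44 ± 0.31 (adjusted p = 0.275) in Hulunbuir, which did not pass, and 2.39 ± 0.32 (adjusted p = 8.43e-05) in Ujumqin, which did. With age 18.9% of all tested genes rose in Hulunbuir and 30.7% in Ujumqin. Of 9 neural markers, such as SOX2 and TUBB3, 6 rose with age in Hulunbuir and 9 in Ujumqin. They summed to 588 to 593 FPKM in Hulunbuir day 25 against 87.4 to 340.2 FPKM at day 16, and to 389 to 447 FPKM in Ujumqin day 25 against 36.3 to 99.8 FPKM at day 16. The neural marker DCX was listed at 0 in 3 day 16 libraries. The part of neural cells in the ENO2 result was not tested.

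At the fate of pyruvate, LDHA and PDK1 fell in both breeds and LDHB rose in Ujumqin. LDHA encodes the lactate dehydrogenase subunit that favours lactate formation. It had 89.2, 111 and 91.9 FPKM in Hulunbuir day 25 embryos, against 519, 671 and 482 FPKM at day 16. In Ujumqin LDHA had 160.4, 223 and 92.1 FPKM at day 25, against 807, 358 and 382 FPKM at day 16. The day 25 libraries were low in both breeds and the Ujumqin ones scattered. LDHA changed by -2.70 ± 0.40 (adjusted p = 0.000453) on the log2 scale in Hulunbuir and -1.57 ± 0.38 (adjusted p = 0.00407) in Ujumqin. LDHB, whose subunit favours use of lactate, had 797, 843 and 824 FPKM in Hulunbuir day 25 embryos, against 1232, 903 and 806 FPKM at day 16. Ujumqin embryos had 860.2, 978 and 994 FPKM of LDHB at day 25, against 724, 615 and 702 FPKM at day 16. The Hulunbuir ages overlapped and Ujumqin day 25 was the higher age. LDHB changed by -0.43 ± 0.19 (adjusted p = 0.0895) on the log2 scale in Hulunbuir and by 0.62 ± 0.19 (adjusted p = 0.0136) in Ujumqin. The Ujumqin call was lost without the second or the third day 25 library (adjusted p 0.0587 and 0.063), and without the third Hulunbuir day 16 library LDHB was called lower at day 25 in Hulunbuir (log2 change -0.62, adjusted p = 0.00744). PDK1, a kinase that inhibits pyruvate dehydrogenase, had 11.1, 9.74 and 9.32 FPKM in Hulunbuir day 25 embryos, against 46.1, 37.9 and 56.3 FPKM at day 16. In Ujumqin PDK1 had 14.4, 12.9 and 13.3 FPKM at day 25, against 47.7, 26.2 and 30.3 FPKM at day 16. Both breeds were lower at day 25 without overlap, with a log2 change of -2.36 ± 0.21 (adjusted p = 2.7e-05) in Hulunbuir and -1.22 ± 0.20 (adjusted p = 0.000353) in Ujumqin.

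Among the factors and sensors, 3 of 4 fell in Hulunbuir and 4 of 4 in Ujumqin. HIF1A, the broadly expressed HIF subunit, had 24.1, 21.9 and 22.5 FPKM in Hulunbuir day 25 embryos, against 44.3, 32.5 and 65.7 FPKM at day 16. In Ujumqin HIF1A had 22.4, 16.5 and 18.02 FPKM at day 25, against 45.5, 34.3 and 47.1 FPKM at day 16. Day 25 was lower without overlap, with a log2 change of -1.18 ± 0.17 (adjusted p = 0.000436) in Hulunbuir and -1.02 ± 0.17 (adjusted p = 0.000392) in Ujumqin. EPAS1, which encodes HIF-2 alpha and is strong in endothelium, had 12.1, 12.4 and 12.5 FPKM in Hulunbuir day 25 embryos, against 19.0, 32.6 and 10.1 FPKM at day 16. Ujumqin embryos had 13.5, 14.4 and 14.5 FPKM of EPAS1 at day 25, against 72.4, 119 and 32.3 FPKM at day 16. The day 16 libraries of both breeds scattered widely, and the Hulunbuir ages overlapped. EPAS1 changed by -0.98 ± 0.50 (adjusted p = 0.138) on the log2 scale in Hulunbuir, not called, and by -2.28 ± 0.52 (adjusted p = 0.00259) in Ujumqin. Without the third Hulunbuir day 16 library the change in Hulunbuir was called (log2 change -1.35, adjusted p = 0.0371).

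EGLN3, an oxygen-sensing prolyl hydroxylase that HIF itself induces, had 5.80, 7.22 and 4.52 FPKM in Hulunbuir day 25 embryos, against 16.6, 26.5 and 19.5 FPKM at day 16. In Ujumqin EGLN3 had 4.53, 3.47 and 1.92 FPKM at day 25, against 43.0, 25.5 and 20.4 FPKM at day 16. No day 25 library reached day 16. EGLN3 fell by 2.02 ± 0.38 (adjusted p = 0.002) on the log2 scale in Hulunbuir and by 3.04 ± 0.40 (adjusted p = 7.31e-05) in Ujumqin. EGLN1, the main oxygen sensor, changed less, by -0.40 ± 0.15 (adjusted p = 0.0486) in Hulunbuir and -0.62 ± 0.15 (adjusted p = 0.00341) in Ujumqin on the log2 scale. The Hulunbuir call for EGLN1 was lost with library totals (log2 change -0.23, adjusted p = 0.358) and without any 1 of 5 Hulunbuir libraries (adjusted p 0.0687 to 0.148).

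Of the 10 hypoxia-induced genes, 7 fell and 1 rose in each breed. NDRG1, a stress-responsive differentiation gene, had 10.1, 9.28 and 10.9 FPKM in Hulunbuir day 25 embryos, against 46.7, 46.5 and 21.0 FPKM at day 16. In Ujumqin NDRG1 had 9.65, 8.91 and 10.4 FPKM at day 25, against 129, 95.7 and 71.3 FPKM at day 16. The breeds were alike at day 25 in FPKM and both were higher at day 16, with a log2 change of -2.13 ± 0.35 (adjusted p = 0.000825) in Hulunbuir and -3.22 ± 0.36 (adjusted p = 2.62e-05) in Ujumqin. P4HA1 and P4HA2 encode the catalytic subunits of collagen prolyl 4-hydroxylase. P4HA1 had 23.4, 23.9 and 21.9 FPKM in Hulunbuir day 25 embryos, against 109.7, 153 and 97.5 FPKM at day 16. Ujumqin embryos had 46.6, 37.7 and 39.4 FPKM of P4HA1 at day 25, against 170.3, 74.9 and 149.7 FPKM at day 16. It was lowest in Hulunbuir day 25, and its log2 change was -2.58 ± 0.31 (adjusted p = 0.00014) in Hulunbuir and -1.53 ± 0.30 (adjusted p = 0.000974) in Ujumqin. P4HA2 had 31.8, 29.8 and 31.2 FPKM in Hulunbuir day 25 embryos, against 91.8, 127 and 74.1 FPKM at day 16. In Ujumqin P4HA2 had 47.1, 37.2 and 36.5 FPKM at day 25, against 77.1, 39.2 and 74.5 FPKM at day 16. Only the Hulunbuir ages stood apart, with a log2 change of -1.86 ± 0.29 (adjusted p = 0.000669) there and -0.52 ± 0.28 (adjusted p = 0.13) in Ujumqin. The Ujumqin change was called without the second day 16 library (log2 change -0.75, adjusted p = 0.0291).

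ADM encodes adrenomedullin, a vessel-dilating peptide. It had 1.65, 1.68 and 1.44 FPKM in Hulunbuir day 25 embryos, against 4.23, 11.8 and 12.4 FPKM at day 16. In Ujumqin ADM had 6.05, 5.22 and 5.47 FPKM at day 25, against 43.5, 108 and 4.23 FPKM at day 16. The day 16 libraries scattered, and the third Ujumqin day 16 library lay below day 25. ADM changed by -2.74 ± 0.83 (adjusted p = 0.0221) on the log2 scale in Hulunbuir and by -3.12 ± 0.84 (adjusted p = 0.00698) in Ujumqin. Its Hulunbuir call was lost without any 1 of 4 libraries, the 3 of day 25 and the second of day 16 (adjusted p 0.0552 to 0.0717). CA9, a surface carbonic anhydrase, was low throughout, at 1.45, 0.793 and 0.311 FPKM in Hulunbuir day 25 embryos against 0.6998, 1.70 and 0.556 FPKM at day 16. The Ujumqin embryos had 0.434, 0.331 and 0.639 FPKM of CA9 at day 25, against 6.97, 4.20 and 0.449 FPKM at day 16. It stood out in only 2 libraries, both Ujumqin day 16. CA9 changed by -0.44 ± 0.86 (adjusted p = 0.713) on the log2 scale in Hulunbuir and by -2.91 ± 0.92 (adjusted p = 0.0167) in Ujumqin, a call lost without the first Ujumqin day 16 library (log2 change -2.21, adjusted p = 0.065) or without the first or second of day 25 (adjusted p 0.0505 and 0.0561).

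ANKRD37, a small ankyrin-repeat protein gene, had 2.29, 4.10 and 2.68 FPKM in Hulunbuir day 25 embryos, against 0.992, 2.46 and 4.70 FPKM at day 16. In Ujumqin ANKRD37 had 3.65, 3.49 and 2.48 FPKM at day 25, against 17.4, 13.2 and 2.70 FPKM at day 16. The ages overlapped in each breed, with 0.05 ± 0.65 (adjusted p = 0.964) on the log2 scale in Hulunbuir and -1.67 ± 0.66 (adjusted p = 0.0438) in Ujumqin. Its Ujumqin call was lost without any 1 of 5 libraries, all but the third of day 16 (adjusted p 0.0799 to 0.158). BNIP3, which marks mitochondria for removal, had 90.5, 92.8 and 98.6 FPKM in Hulunbuir day 25 embryos, against 286, 229 and 253 FPKM at day 16. Ujumqin embryos had 75.3, 86.3 and 86.3 FPKM of BNIP3 at day 25, against 331, 114 and 177 FPKM at day 16. Day 25 was lower without overlap, with a log2 change of -1.61 ± 0.30 (adjusted p = 0.00193) in Hulunbuir and -1.19 ± 0.30 (adjusted p = 0.00507) in Ujumqin. VEGFA, the growth factor of vessels, fell by 1.54 ± 0.22 (adjusted p = 0.000434) in Hulunbuir and by 1.30 ± 0.22 (adjusted p = 0.000443) in Ujumqin on the log2 scale.

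BNIP3L, or NIX, is the relative of BNIP3 that clears mitochondria from maturing red cells. It had 175, 182 and 169.7 FPKM in Hulunbuir day 25 embryos, against 90.6, 59.9 and 109.8 FPKM at day 16. In Ujumqin BNIP3L had 107, 90.8 and 106 FPKM at day 25, against 131, 100.2 and 172 FPKM at day 16. Hulunbuir day 25 was the highest group and stood above Hulunbuir day 16 without overlap, whereas the Ujumqin ages overlapped. The log2 change of BNIP3L was 0.89 ± 0.18 (adjusted p = 0.00254) in Hulunbuir and -0.27 ± 0.17 (adjusted p = 0.199) in Ujumqin. Without the second Ujumqin day 16 library the change in Ujumqin was called lower at day 25 (log2 change -0.42, adjusted p = 0.0431). Of the 12 erythroid markers, 11 rose with age in Hulunbuir, and in Ujumqin 7 fell and 1 rose. Among all tested genes 18.9% rose in Hulunbuir, and in Ujumqin 32.9% fell and 30.7% rose. None of the 12 was at 0 in any library, and their part in the BNIP3L and SLC2A1 results was not tested.

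DDIT4, or REDD1, is a stress-induced brake on mTOR signalling. It had 115, 123 and 130.0 FPKM in Hulunbuir day 25 embryos, against 141, 149.6 and 491 FPKM at day 16. In Ujumqin DDIT4 had 115, 101 and 99.1 FPKM at day 25, against 31.1, 34.0 and 65.6 FPKM at day 16. The 2 day 25 groups were close, Hulunbuir day 16 was above them with the third library far over the other two, and Ujumqin day 16 was below them. DDIT4 changed by -1.17 ± 0.37 (adjusted p = 0.0277) on the log2 scale in Hulunbuir and by 1.42 ± 0.38 (adjusted p = 0.00672) in Ujumqin. The fall in Hulunbuir was not called without the third Hulunbuir day 16 library (log2 change -0.51, adjusted p = 0.129), without any 1 of the 3 day 25 libraries (adjusted p 0.0665 to 0.0839) or with library totals (log2 change -1.06, adjusted p = 0.0738).

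**Figure D2:**
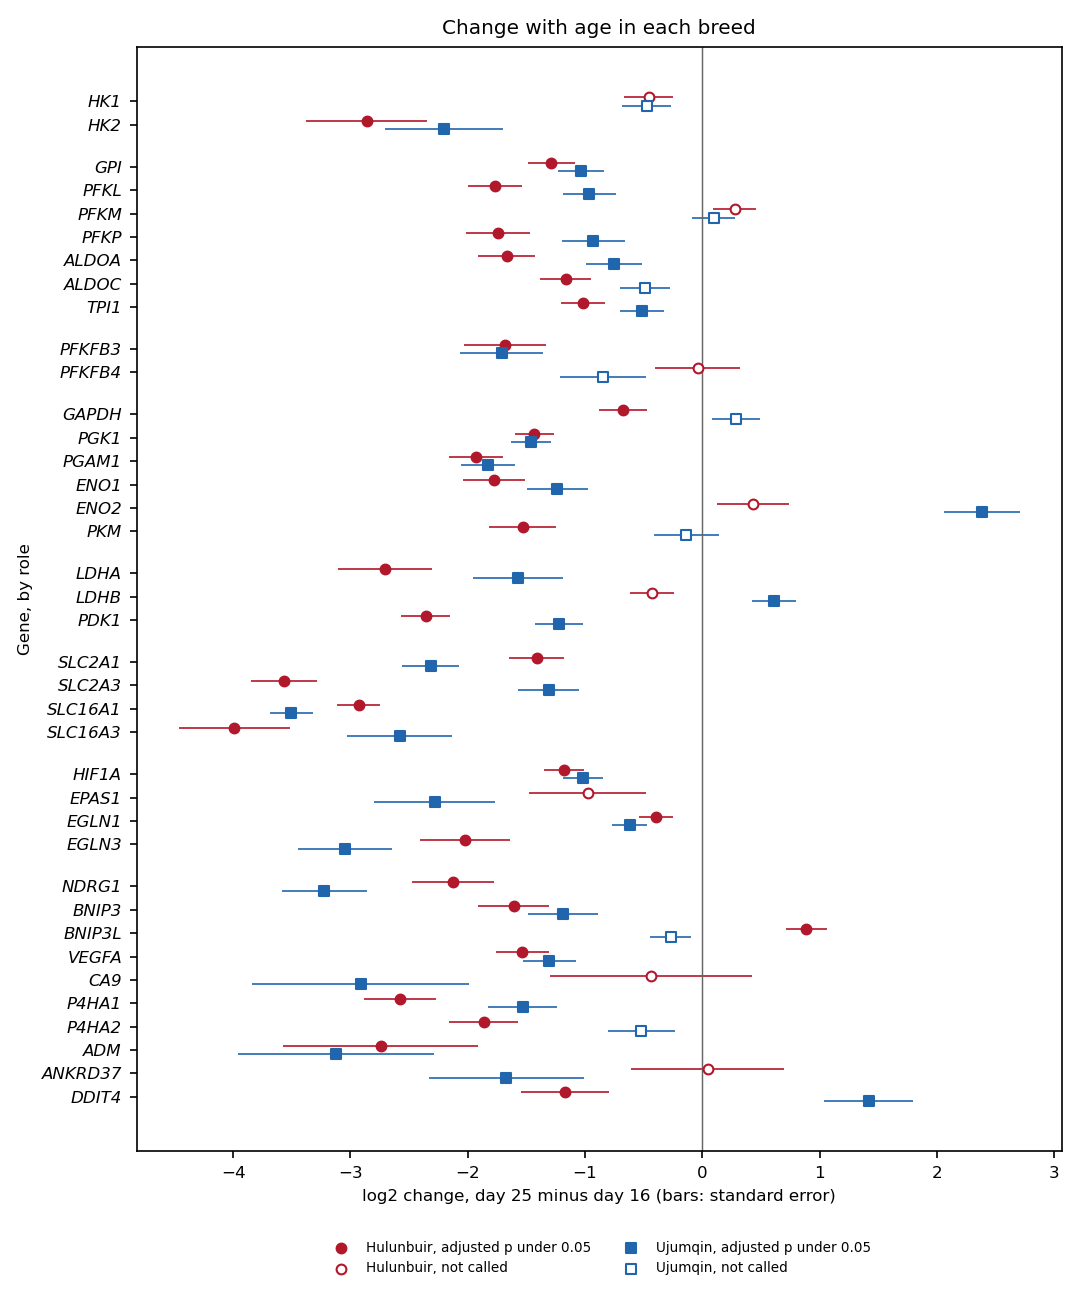
Change with age of the 38 genes as the log2 change of day 25 minus day 16 in Hulunbuir (circles) and Ujumqin (squares), with bars for the standard error and filled marks for calls. Most marks of both breeds lie left of 0, and DDIT4 lies on opposite sides.

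Markers of other cells moved with age as well. Beside each count, 21.6% of all tested genes fell and 18.9% rose in Hulunbuir, and 32.9% and 30.7% in Ujumqin. Of 12 trophoblast markers, 8 fell and 0 rose in Hulunbuir, and 10 fell and 0 rose in Ujumqin. They summed to 378 to 413 FPKM in Hulunbuir day 25 against 1762 to 5664 FPKM at day 16, and to 337 to 596 FPKM in Ujumqin day 25 against 1893 to 4075 FPKM at day 16. CDX2, a defining trophoblast factor, was listed at 0 in 2 of the 6 day 25 libraries. Of 9 endothelial markers, 8 fell in Hulunbuir and 6 in Ujumqin, with sums of 103 to 106 FPKM at day 25 against 313 to 350.0 FPKM at day 16 in Hulunbuir, and 78.7 to 95.2 FPKM against 139.7 to 261 FPKM in Ujumqin. No endothelial marker was at 0. Of 12 cell-cycle genes, 1 rose in Hulunbuir and 5 in Ujumqin, and 0 fell. The part of these cell types in the falls of glycolytic and hypoxia-induced genes was not tested.

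The change with age differed between the breeds for 9 of the 38 genes by the breed by age interaction, where 19.2% of all tested genes were called. For 8 of them (DDIT4, SLC2A3, ENO2, PKM, P4HA2, PDK1, LDHB and GAPDH) the age effect in Hulunbuir was the lower one, and for BNIP3L it was the higher one. Among all genes 10.3% were called lower and 8.89% higher. In lower glycolysis GAPDH, ENO2 and PKM were called, whereas PGK1, PGAM1 and ENO1 were not. Their interactions on the log2 scale were 0.03 ± 0.23 (adjusted p = 0.949) for PGK1, -0.10 ± 0.31 (adjusted p = 0.848) for PGAM1 and -0.54 ± 0.36 (adjusted p = 0.305) for ENO1.

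DDIT4 (chromosome 25, bases 28192538 to 28193491, Oar_v3.1) had an interaction of -2.59 ± 0.53 (adjusted p = 0.00862) on the log2 scale. SLC2A3 (chromosome 3, bases 206193144 to 206206504) had -2.26 ± 0.37 (adjusted p = 0.00305). BNIP3L (chromosome 2, bases 39055228 to 39076318) had 1.15 ± 0.25 (adjusted p = 0.0104). These 3 interactions passed in every alternative fit. ENO2 (chromosome 3, bases 207486007 to 207499758) had -1.95 ± 0.44 (adjusted p = 0.0124), which missed the threshold in 1 alternative, limma on log2(FPKM + 1) (adjusted p = 0.0538). The values of these 4 genes show different patterns. SLC2A3 fell in both breeds and further in Hulunbuir, ENO2 stood at higher FPKM at day 25 in both and was called in Ujumqin, DDIT4 was called in opposite directions, and BNIP3L rose in Hulunbuir alone by the tests within each breed.

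PDK1 had an interaction of -1.14 ± 0.28 (adjusted p = 0.0196), LDHB of -1.04 ± 0.26 (adjusted p = 0.0208), PKM of -1.40 ± 0.39 (adjusted p = 0.0312), GAPDH of -0.96 ± 0.29 (adjusted p = 0.0394) and P4HA2 of -1.34 ± 0.40 (adjusted p = 0.0395) on the log2 scale. These 5 were close to the threshold, and each was lost when 1 of several libraries was left out. With library totals alone PDK1, PKM, GAPDH and P4HA2 were not called (adjusted p 0.0691 to 0.0977). Under that scaling the median interaction of all genes was 0.25 instead of -0.03, and 73.38% instead of 46.29% of all calls were higher ones. Of the 38 genes 4 were called higher and 4 lower, where 1990 of the 14595 tested genes were higher and 722 lower. SLC2A1 had an interaction of 0.90 ± 0.32 (adjusted p = 0.0725), short of the threshold, and was called in 9 of the 21 alternative fits. The count of called members ran from 4 to 15 when 1 library was left out. It was 5, 5 and 4 without the first, the second and the third Hulunbuir day 25 library, where 10.7, 11.3 and 10.8% of all tested genes were called. It was 4 without the second or the third Ujumqin day 25 library, where 11.1 and 10.9% of all tested genes were. Without the first Ujumqin day 16 library it was 15, beside 16.7% of all tested genes. The main fit called 19.2% of them.

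**Figure D3:**
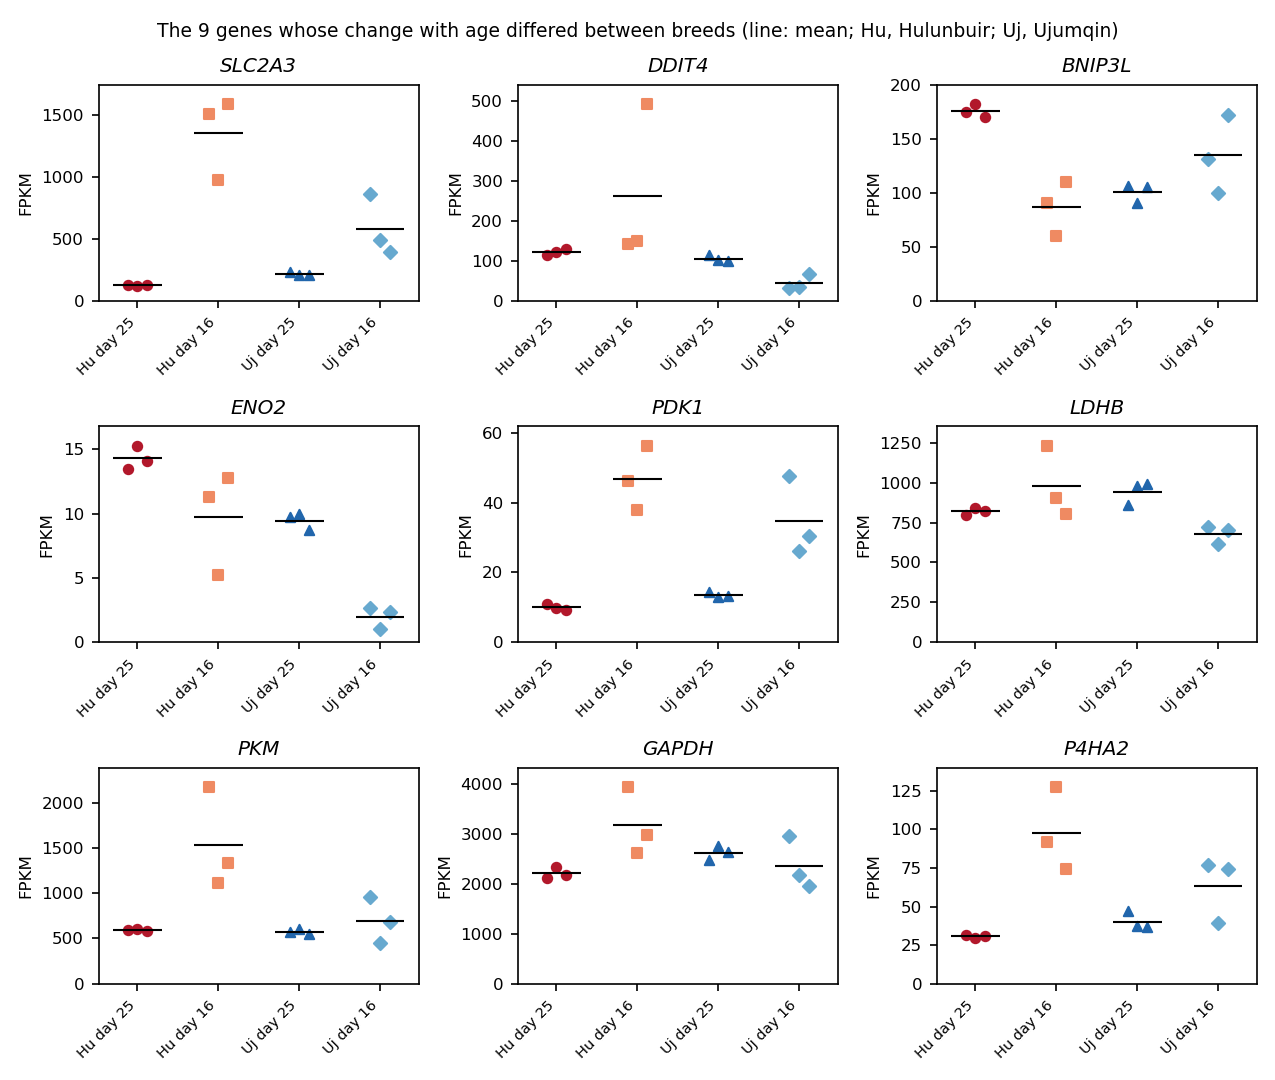
FPKM of the 9 genes called in the breed by age interaction, 1 point per library with a line at the group mean of 3 libraries, in panels that start at 0. Hulunbuir day 16 is the highest group by its mean for SLC2A3, DDIT4, PDK1, LDHB, PKM, GAPDH and P4HA2, and Hulunbuir day 25 for BNIP3L and ENO2.

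At day 25 the breeds differed in 21 of the 38 genes, 10 higher and 11 lower in Hulunbuir than in Ujumqin, where 23.3% of all tested genes were called higher and 22.7% lower. The share of the 38 was thus near that of all genes. The median log2 change of the 38 was -0.12. Of the 31 genes named in the table, 7 were higher and 8 lower. With library totals alone, 13 of the 38 were higher and 7 lower, where 6049 of the 14595 tested genes were higher and 1483 lower. Of all called genes 80.31% were then higher, against 50.58% with TMM. GPI, ENO1 and EGLN1 were called higher with that scaling. Of the genes called under either scaling, GPI and PKM changed sign. Uncalled genes changed sign too, among them TPI1 (-0.22 with TMM and 0.11 with library totals) and HIF1A (-0.06 and 0.26). PKM was called lower with TMM (-0.29 ± 0.08, adjusted p = 0.0175) although its FPKM overlapped, at 583 to 601 in Hulunbuir and 553 to 599.6 in Ujumqin, and it was not called with library totals.

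The glucose carriers differed in opposite directions at day 25. SLC2A1 stood at 163 to 167 FPKM in Hulunbuir, against 50.6 to 57.3 FPKM in Ujumqin day 25 embryos, a log2 change of 1.27 ± 0.07 (adjusted p = 1.03e-05). SLC2A3 stood at 119 to 129.8 FPKM in Hulunbuir, against 207 to 230.4 FPKM in Ujumqin, a log2 change of -1.10 ± 0.07 (adjusted p = 2.04e-05). Neither overlapped between breeds, and both calls held in every alternative fit. SLC16A1 was higher in Hulunbuir by 0.50 ± 0.11 (adjusted p = 0.0062) on the log2 scale, and SLC16A3 overlapped and was not called (-0.37 ± 0.15, adjusted p = 0.0792). All 12 erythroid markers were higher in Hulunbuir at day 25, beside 23.3% of all tested genes. The part of these markers in the SLC2A1 difference was not tested.

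Of the oxygen-response genes at day 25, EPAS1, ADM, P4HA1 and P4HA2 were lower in Hulunbuir. ADM stood at 1.44 to 1.68 FPKM in Hulunbuir, against 5.22 to 6.05 FPKM in Ujumqin, a log2 change of -2.14 ± 0.13 (adjusted p = 1.31e-05). P4HA1 stood at 21.9 to 23.9 FPKM, against 37.7 to 46.6 FPKM in Ujumqin, a log2 change of -1.16 ± 0.08 (adjusted p = 3.28e-05). For P4HA2 the log2 change was -0.70 ± 0.08 (adjusted p = 0.000377), and for EPAS1 -0.53 ± 0.08 (adjusted p = 0.00129). None of the 4 overlapped between the breeds. Another hypoxia-induced gene called was BNIP3L, higher in Hulunbuir by 0.47 ± 0.08 (adjusted p = 0.00198) on the log2 scale, so that of the 10 such genes 1 was higher, 3 were lower and 6 did not pass. BNIP3 and HIF1A were among those that did not pass, with log2 changes of -0.15 ± 0.10 (adjusted p = 0.265) and -0.06 ± 0.09 (adjusted p = 0.654).

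All 3 genes at the fate of pyruvate were lower in Hulunbuir at day 25. LDHA stood at 89.2 to 111 FPKM in Hulunbuir, against 92.1 to 223 FPKM in Ujumqin, overlapping, with a log2 change of -1.03 ± 0.27 (adjusted p = 0.0141). This call was lost with library totals (adjusted p = 0.0546) and without the first or the third Hulunbuir library (adjusted p 0.055 and 0.0517). LDHB stood at 797 to 843 FPKM, against 860.2 to 994 FPKM in Ujumqin, a log2 change of -0.53 ± 0.10 (adjusted p = 0.00307), lost with library totals (adjusted p = 0.0526). PDK1 stood at 9.32 to 11.1 FPKM in Hulunbuir, against 12.9 to 14.4 FPKM in Ujumqin, a log2 change of -0.76 ± 0.11 (adjusted p = 0.000996) that held with library totals.

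Among the glycolytic enzymes at day 25, HK1 was higher in Hulunbuir (0.58 ± 0.07, adjusted p = 0.000409), as were PFKFB3 (0.64 ± 0.17, adjusted p = 0.013), PFKP (0.47 ± 0.14, adjusted p = 0.0248), PFKM (0.43 ± 0.07, adjusted p = 0.00148), PGAM1 (0.37 ± 0.12, adjusted p = 0.0321), ENO2 (0.27 ± 0.09, adjusted p = 0.0318) and PGK1 (0.22 ± 0.07, adjusted p = 0.0259), each as a log2 change. GAPDH was lower in Hulunbuir (-0.57 ± 0.10, adjusted p = 0.0017), as was ALDOA (-0.56 ± 0.12, adjusted p = 0.00573), whose call was lost with library totals (adjusted p = 0.0763). The most abundant uncalled genes of their groups were HK2 (0.07 ± 0.23, adjusted p = 0.825), TPI1 (-0.22 ± 0.10, adjusted p = 0.0943), ENO1 (0.24 ± 0.12, adjusted p = 0.13) and PFKFB4 (-0.18 ± 0.25, adjusted p = 0.574). The calls of PFKP, PGK1, PGAM1, ENO2, PKM and PFKFB3 were each lost without at least 1 of the Hulunbuir day 25 libraries, with adjusted p of 0.05 to 0.124. In 1 fit over all 12 libraries, which shares the wider day 16 spread, 4 of the 38 were called at day 25 (SLC2A1 higher, and SLC2A3, P4HA1 and PDK1 lower in Hulunbuir), where 7.88% of all genes were called higher and 8.84% lower.

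**Figure D4:**
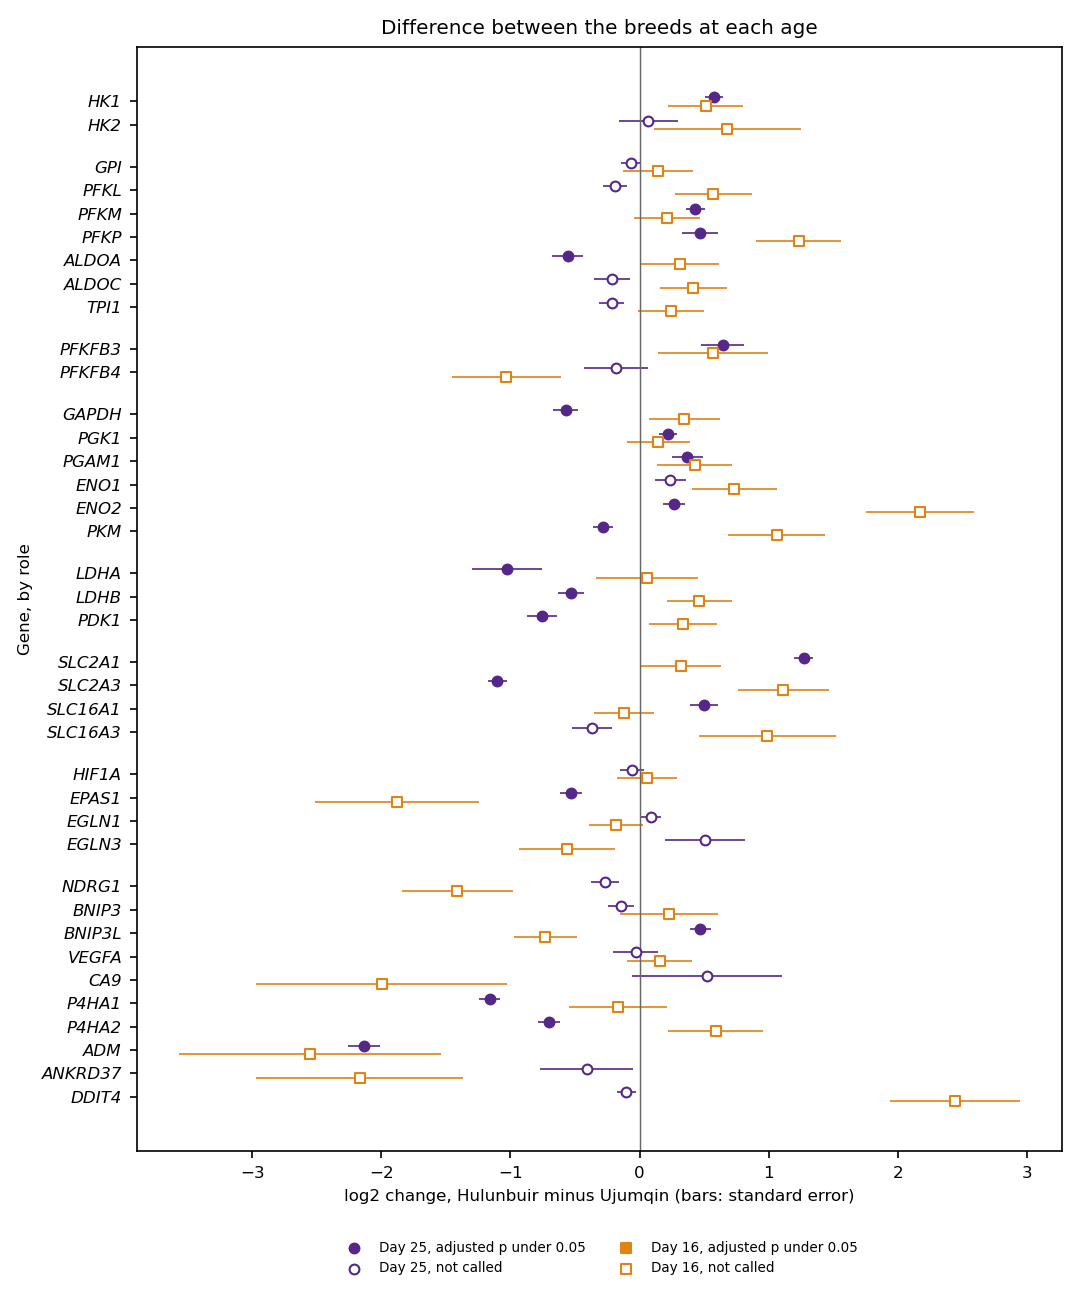
Difference between the breeds for the 38 genes as the log2 change of Hulunbuir minus Ujumqin at day 25 (circles) and day 16 (squares), with bars for the standard error and filled marks for calls. SLC2A1 and SLC2A3 lie on opposite sides at day 25, and no day 16 mark is filled.

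At day 16 none of the 38 genes was called between the breeds by edgeR in the 6 day 16 libraries, and 0.0206% of all tested genes were. At an unadjusted p under 0.05 there were 11 of the 38, beside 20.2% of all genes. Of the 38, 27 had a log2 change above 0, with a median of 0.28 against 0.01 for all genes. FPKM stood higher in Hulunbuir without overlap for 9 of the 38 and lower for 1, where 13.2% of all genes were higher and 11.1% lower. The 11 genes named next were chosen after their values were seen, by an unadjusted p under 0.05.

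Of those, 5 had the higher level in Hulunbuir and their libraries did not overlap. DDIT4 stood at 141 to 491 FPKM in Hulunbuir day 16, against 31.1 to 65.6 FPKM in Ujumqin day 16 embryos (log2 change 2.44 ± 0.50, adjusted p = 0.11). ENO2 stood at 5.22 to 12.8 FPKM, against 1.01 to 2.64 FPKM in Ujumqin (log2 change 2.17 ± 0.42, adjusted p = 0.1). For PFKP the log2 change was 1.23 ± 0.33 (adjusted p = 0.138), for SLC2A3 1.11 ± 0.35 (adjusted p = 0.165) and for PKM 1.06 ± 0.38 (adjusted p = 0.191). The other 6 had log2 changes below 0, namely EPAS1 (-1.88 ± 0.64, adjusted p = 0.18), NDRG1 (-1.41 ± 0.43, adjusted p = 0.158), BNIP3L (-0.73 ± 0.24, adjusted p = 0.176), ADM (-2.55 ± 1.02, adjusted p = 0.225), ANKRD37 (-2.17 ± 0.80, adjusted p = 0.202) and PFKFB4 (-1.03 ± 0.42, adjusted p = 0.234). Of these only NDRG1 did not overlap between the breeds.

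Libraries of the 2 breeds that carry the same replicate number deviated together at day 16, so a fit with that number as a block was also made. It called 3 of the 38: ENO2 and DDIT4 higher and EPAS1 lower in Hulunbuir (log2 changes of 2.22, 2.33 and -1.9, adjusted p of 0.0292, 0.0305 and 0.0294), and 293 genes in all. DESeq2 called 9 of the 38, beside 11.5% of the genes to which it gave an adjusted p, and limma-voom called 5, beside 3.34% of all genes. One edgeR fit over the 12 libraries called 9 as well, where 8.46% of all genes were called higher and 8.39% lower. The biological coefficient of variation of the 12 libraries, 33.72%, is below that of the day 16 libraries. The most abundant uncalled genes of the other role groups had log2 changes of 0.51 ± 0.29 for HK1 (adjusted p = 0.355), 0.24 ± 0.25 for TPI1 (adjusted p = 0.612), 0.57 ± 0.43 for PFKFB3 (adjusted p = 0.475), 0.35 ± 0.28 for GAPDH (adjusted p = 0.503), 0.46 ± 0.25 for LDHB (adjusted p = 0.337), 0.06 ± 0.23 for HIF1A (adjusted p = 0.908) and 0.23 ± 0.38 for BNIP3 (adjusted p = 0.762).

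Shares within pairs or trios of isoforms and paralogs, taken from FPKM, compare levels per length within a library. With ages permuted within each breed in a two-sided exact permutation test, 11 of 14 shares differed between the ages after adjustment over the 14. The smallest p this test can give is 0.005 before adjustment, and 8 shares reached an adjusted p of 0.00875. LDHB made up 89.9, 88.3 and 89.97% of LDHA plus LDHB in Hulunbuir day 25 embryos, against 70.4, 57.3 and 62.6% at day 16. In Ujumqin it made up 84.3, 81.5 and 91.5% at day 25, against 47.3, 63.2 and 64.7% at day 16. The LDHB share was higher at day 25 in both breeds without overlap, by 26.6 percentage points on average. HK2 made up 10.3, 10.1 and 8.98% of the 2 hexokinases in Hulunbuir day 25 embryos, against 34.2, 29.2 and 46.3% at day 16. Its share in Ujumqin was 17.3, 12.2 and 10.2% at day 25, against 42.2, 17.9 and 32.4% at day 16. HK2's share fell by 22.2 points on average.

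PFKM made up 39.2, 39.8 and 41.0% of the 3 phosphofructokinases in Hulunbuir day 25 embryos, against 13.3, 10.5 and 19.7% at day 16. In Ujumqin the PFKM share was 36.4, 30.8 and 30.8% at day 25, against 17.9, 20.8 and 18.1% at day 16. PFKM's share was higher at day 25 by 19.6 points, while that of PFKL fell by 15.2 points and that of PFKP by 4.45 points (adjusted p = 0.0156). Of 9 heart markers 0 rose and 6 fell with age in Hulunbuir, and 3 rose and 3 fell in Ujumqin. Of 10 tested skeletal muscle markers 4 rose and 1 fell in Hulunbuir, and 7 rose and 0 fell in Ujumqin. Among all tested genes 18.9% rose and 21.6% fell in Hulunbuir, and 30.7% rose and 32.9% fell in Ujumqin. The heart counts in Ujumqin were near those shares. The muscle markers summed to 395 to 441 FPKM in Hulunbuir day 25 against 209 to 578 FPKM at day 16, and to 343 to 460.1 FPKM in Ujumqin day 25 against 52.4 to 154 FPKM at day 16, with MYOD1 and MYOG each listed at 0 in 5 day 16 libraries. Their part in the PFKM share was not tested. EGLN3's share of EGLN1 plus EGLN3 fell by 26.1 points. The shares of P4HA2 in P4HA1 plus P4HA2 and of BNIP3L in BNIP3 plus BNIP3L were higher at day 25 by 14.5 and 26.8 points, and that of ENO2 in the 2 enolases by 1.35 points. For ALDOC (of ALDOA plus ALDOC) the share was higher by 1.58 points (adjusted p = 0.028) and for PFKFB4 (of PFKFB3 plus PFKFB4) by 15.8 points (adjusted p = 0.0382). The shares of PFKP, ALDOC and PFKFB4 overlapped between the ages in Ujumqin and stood apart in Hulunbuir alone.

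The shares of the carriers moved in opposite directions in the 2 breeds and did not pass the test over both. SLC2A3 made up 44.2, 41.5 and 44.1% of SLC2A1 plus SLC2A3 in Hulunbuir day 25 embryos, against 74.2, 73.1 and 85.1% at day 16. In Ujumqin the SLC2A3 share was 80.1, 79.0 and 80.4% at day 25, against 72.5, 61.3 and 60.7% at day 16. Each breed was without overlap between ages, lower at day 25 in Hulunbuir and higher in Ujumqin. SLC16A3 made up 25.0, 29.5 and 28.9% of the 2 lactate carriers in Hulunbuir day 25 embryos, against 47.1, 48.4 and 35.8% at day 16, and 45.9, 37.4 and 40.8% in Ujumqin day 25, against 35.7, 12.5 and 28.7% at day 16. The adjusted p over both breeds was 0.274 for SLC2A3, 0.98 for SLC16A3 and 0.485 for EPAS1 of HIF1A plus EPAS1. Within 1 breed or 1 age, 3 libraries against 3 cannot give a p below 0.1, so the breed differences in these shares are values without a passing test.

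**Figure D5:**
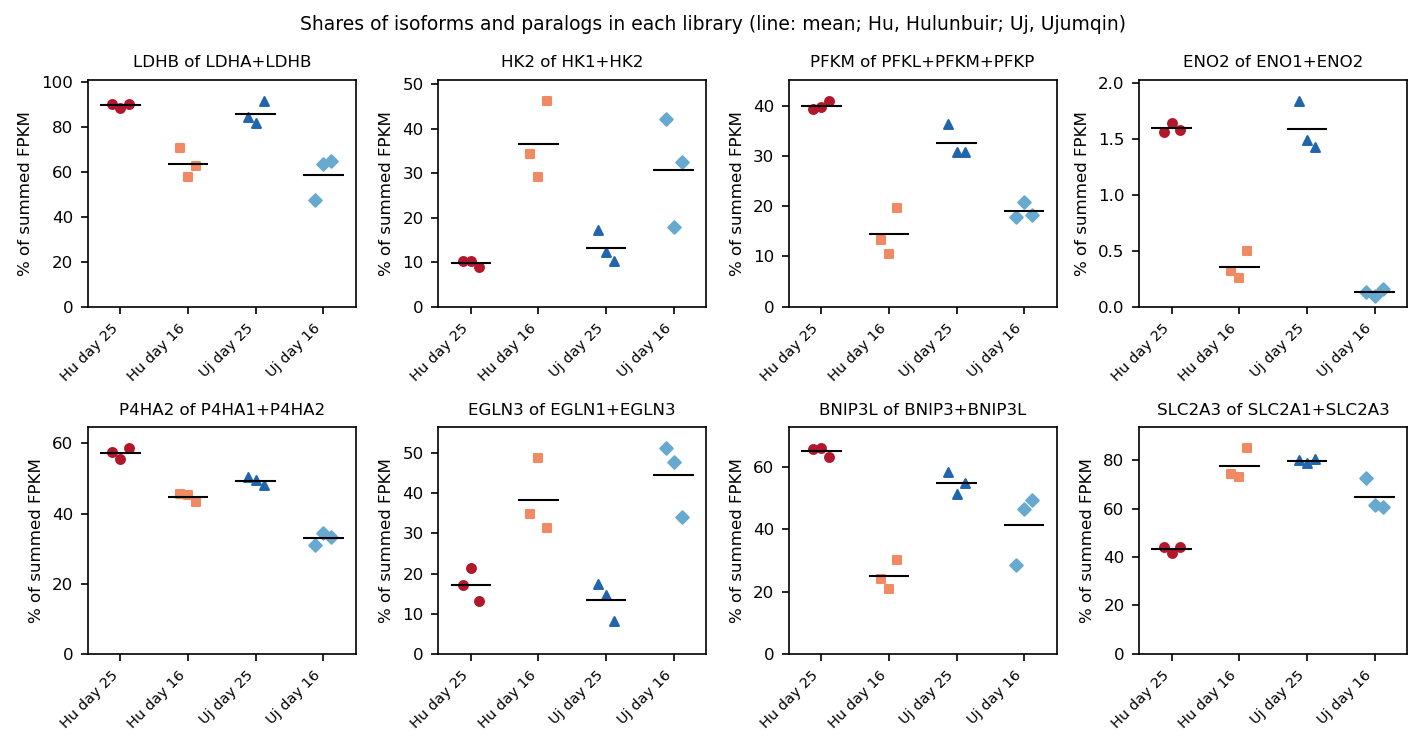
Share of summed FPKM held by 1 isoform or paralog of a family, in percent, with 1 point per library and a line at the group mean of 3 libraries; each axis starts at 0. The LDHB, PFKM, ENO2, P4HA2 and BNIP3L shares are higher at day 25 in both breeds, the HK2 and EGLN3 shares are lower, and the SLC2A3 share goes down in Hulunbuir and up in Ujumqin.

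Other genes of the same pathways were read from lists kept apart from the 38, with log2 changes and SE given for those named, all of which passed the test unless stated. With age, 21 of 40 further hypoxia-induced genes fell and 4 rose in Hulunbuir, and 19 fell and 6 rose in Ujumqin. Their median log2 change was -1.14 in Hulunbuir and -0.95 in Ujumqin. Of all tested genes, 21.6% fell and 18.9% rose in Hulunbuir, and 32.9% fell and 30.7% rose in Ujumqin. STC2, which encodes stanniocalcin 2, fell by 4.28 ± 0.84 in Hulunbuir and 5.05 ± 0.88 in Ujumqin. AK4, a mitochondrial adenylate kinase, fell by 3.67 ± 0.40 in Hulunbuir and 3.86 ± 0.41 in Ujumqin. The collagen lysyl hydroxylase PLOD2 fell by 3.75 ± 0.43 in Hulunbuir and the VEGF receptor FLT1 by 4.03 ± 0.28. In Ujumqin the placental growth factor gene PGF fell by 4.42 ± 0.79 and BHLHE41 by 3.45 ± 1.20. The ephrin EFNA3 and the inhibin subunit INHA rose, by 2.30 ± 0.36 and 1.62 ± 0.36 in Hulunbuir and by 2.03 ± 0.36 and 2.001 ± 0.36 in Ujumqin.

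Of 16 other genes of glycolysis and linked steps 5 fell and 6 rose with age in Hulunbuir, and 7 fell and 4 rose in Ujumqin. Of all tested genes, 21.6% fell and 18.9% rose in Hulunbuir, and 32.9% fell and 30.7% rose in Ujumqin. PKLR, the pyruvate kinase of liver and red cells, had a mean of 101 FPKM in Hulunbuir day 25 against 2.32 FPKM at day 16, and 12.8 FPKM in Ujumqin day 25 against 16.8 FPKM at day 16. It rose by 5.27 ± 0.47 on the log2 scale in Hulunbuir and its interaction was 5.49 ± 0.59. PFKFB1, the liver form of PFKFB, rose by 6.23 ± 0.93 in Hulunbuir and by 2.28 ± 0.75 in Ujumqin. FBP1, the fructose bisphosphatase of glucose synthesis, fell by 4.52 ± 0.96 in Ujumqin and had an interaction of 6.11 ± 1.27. PGAM2, the muscle mutase, rose by 4.26 ± 0.64 in Ujumqin, with an interaction of -3.54 ± 0.81. Of 15 yolk sac and liver markers, 5 rose and 4 fell in Hulunbuir and 12 fell in Ujumqin. They summed to 22415 to 24096 FPKM in Hulunbuir day 25 against 4498 to 14383 FPKM at day 16, and to 6334 to 9830.0 FPKM in Ujumqin day 25 against 28841 to 72749.8 FPKM at day 16. None of these markers was at 0, and their part in these changes was not tested.

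At the entry of pyruvate to mitochondria, 5 of 11 genes fell and 3 rose in Hulunbuir, and 6 fell and 2 rose in Ujumqin. For these and the next lists, 21.6% of all tested genes fell and 18.9% rose in Hulunbuir, and 32.9% and 30.7% in Ujumqin. The pyruvate carrier subunits MPC1 and MPC2 rose by 1.12 ± 0.18 and 1.09 ± 0.13 in Hulunbuir, and MPC2 rose by 0.32 ± 0.13 in Ujumqin, a call lost with library totals (adjusted p = 0.16) and without any 1 of 4 Ujumqin libraries (adjusted p 0.132 to 0.201). The pyruvate dehydrogenase genes PDHA1 and DLAT fell by 1.20 ± 0.19 and 1.23 ± 0.17 in Hulunbuir and by 2.46 ± 0.20 and 2.21 ± 0.17 in Ujumqin. Of 13 tested genes of glucose synthesis and glycogen, 5 fell and 1, PCK2, rose in Hulunbuir, and 9 fell and 2 rose in Ujumqin. Among 12 further hexose and lactate carriers 2 fell in Hulunbuir. The fructose carrier SLC2A5 fell by 4.32 ± 0.79 and the inositol carrier SLC2A13 fell by 2.12 ± 0.41. In Ujumqin 5 of the 12 fell and 1 rose. The 7 pentose phosphate genes had 2 rises and 2 falls in Hulunbuir, and 2 rises and 3 falls in Ujumqin.

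Other parts of the HIF pathway had calls in both directions. Of 12 genes, 2 fell and 3 rose in Hulunbuir, and 6 fell and 4 rose in Ujumqin. Of all tested genes, 21.6% fell and 18.9% rose in Hulunbuir, and 32.9% fell and 30.7% rose in Ujumqin. CITED2, which competes with HIF for its coactivators, fell by 1.06 ± 0.33 in Hulunbuir and 1.29 ± 0.34 in Ujumqin. Its call in Hulunbuir was lost with library totals (adjusted p = 0.0609) and without any 1 of 5 Hulunbuir libraries (adjusted p 0.0593 to 0.0809). The elongin subunit ELOB and the hydroxylase EGLN2 rose by 0.78 ± 0.18 and 0.66 ± 0.15 in Hulunbuir and by 1.83 ± 0.18 and 0.95 ± 0.15 in Ujumqin. Of 18 genes that share stress, p53 or glucocorticoid control with DDIT4, 5 rose and 1 fell in Hulunbuir, and 5 rose and 4 fell in Ujumqin. The stress kinase relative TRIB3 rose by 4.77 ± 0.98 in Hulunbuir and the stress factor DDIT3 by 1.93 ± 0.43, and DDIT3 rose by 2.42 ± 0.44 in Ujumqin.

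Between the breeds at day 25, 7 of 16 other genes of glycolysis and linked steps were higher in Hulunbuir and 3 lower. Of all tested genes, 23.3% were higher and 22.7% lower, to be set beside each list count at day 25. Among the higher of the 16 were PKLR and HKDC1, at log2 changes of 2.65 ± 0.07 and 2.23 ± 0.31. PGAM2 was lower, at -0.73 ± 0.22, a call lost with library totals (adjusted p = 0.15) and without any 1 of 5 libraries (adjusted p 0.0589 to 0.0795). Of the 13 genes of glucose synthesis and glycogen 5 were higher and 1 lower, among them FBP1 at 2.55 ± 0.20 and the liver glycogen synthase GYS2 at 3.56 ± 0.72. Of 15 yolk sac and liver markers 11 were higher in Hulunbuir and 0 lower. Of the 40 further hypoxia-induced genes 6 were higher and 14 lower. The erythropoietin gene EPO (3.42 ± 0.99), GPR146 (1.48 ± 0.27) and the transferrin receptor TFRC (1.42 ± 0.12) were among the higher ones, and BHLHE40 (-3.56 ± 0.36) and LOX (-1.58 ± 0.32) among the lower ones. The call of EPO was lost without any 1 of 4 libraries (adjusted p 0.0508 to 0.0617). In the list around DDIT4, ATF3 (-2.94 ± 0.14) and PPP1R15A (-1.11 ± 0.13) were lower and TRIB3 (2.26 ± 0.28) higher in Hulunbuir. Of 14 immediate-early genes, which can respond to dissociation, 3 were higher and 10 lower in Hulunbuir at day 25. They summed to 485 to 488 FPKM in Hulunbuir and 556 to 773 FPKM in Ujumqin, none was at 0, and their part in these differences was not tested. At day 16 no gene of these 8 lists was called between the breeds by edgeR, beside 0.0206% of all tested genes. An unadjusted p under 0.05 was found for 44 of the 129, beside 20.2% of all tested genes.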

How the data were processed

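Bulk RNA-seq of 12 sheep embryo libraries, 3 for each of 2 breeds at each of 2 ages, was read from 1 table of 26247 genes. Reads were handled with cutadapt 1.9 and FastQC on the Oar_v3.1 genome, per the submitters' processing notes. The sources used here do not give the aligner, the counting program, use of strand or the treatment of reads that map to several places. The deposited counts are whole numbers per gene and library, not scaled, per the file headers and values. The deposited FPKM equal those counts times 1 factor per gene and 1 per library, with a median spread of 0.0831% over 8029 well-counted genes, and a count of 0 is written by the authors as an FPKM of 0.0001. All count and FPKM columns were matched to a sample, 0 being left over, and 0 entries lacked a gene identifier. The table and the RefSeq gene table, used for names alone, named 17043 and 1286 genes (15024 of 15439 NCBI gene numbers matched).

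The 14595 genes that reached an FPKM of 1 in 3 or more of the 12 libraries were tested with edgeR 4.0.16 (R 4.3.3): TMM scaling, quasi-likelihood F test, two-sided, Benjamini-Hochberg adjustment over all tested genes, threshold 0.05. Breed contrasts (Hulunbuir minus Ujumqin) used the 6 libraries of an age, and age contrasts (day 25 minus day 16) and the interaction used all 12. Shares of isoforms were compared with exact permutation tests, adjusted over 14 shares. The fit was tested on simulated data. Alternatives were DESeq2 1.42.0, limma 3.58.1 (voom with a weight per group, and log2(FPKM + 1) or log2(FPKM + 0.1)), DESeq2's size factors or library totals in place of TMM, other filters, another set of libraries in the fit, the replicate number as a block, and each library left out in turn.

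The members, lists and tests were chosen with earlier results of these data known. Values by library are given for members called in a comparison, up to 12 by size of change, for those called in the interaction, and for the most abundant uncalled member of each role. From each pathway list up to 3 called genes per direction were open to naming, and some of these and of the cell markers are not reported here. Depth was 30464606 to 55455815 counts per library, and the lowest count of a member was 16. Replicates of a group differed beyond sampling noise in every pair, the lowest chi-square per degree of freedom being 17.5, so each library counted as 1. Deviations from group means correlated between same-numbered libraries of the breeds at day 16 (r of 0.189, 0.302 and 0.356), a hint from the data that the numbers pair them, since the labels give the numbers no meaning. At day 25 these were 0.0545, 0.0589 and 0.0315. No sequence is shown, since no sequence file was used here.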

Additional observations from a re-analysis of the deposited data

Results flagged for a closer look

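Each of the 9 genes here is listed because its change with age differed between the breeds by the interaction test of edgeR over 12 libraries, given as the log2 change with age in Hulunbuir minus that in Ujumqin. DDIT4 had -2.59, the largest difference among the 38 genes that passed. SLC2A3 had -2.26, ENO2 -1.95, PKM -1.40, P4HA2 -1.34, PDK1 -1.14, LDHB -1.04 and GAPDH -0.96. BNIP3L had 1.15 and was the 1 gene of the 9 whose age effect was the higher one in Hulunbuir. DDIT4, SLC2A3 and BNIP3L passed under each of the 21 alternatives. No sample of a single group was tested as an outlier, because groups of 3 libraries are too small for that.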

How the results depend on the processing

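Of 5965 alternative values of single genes and shares, 5394 kept their side of the threshold, 463 lost the call and 99 gained one. The other 9 changed sign and were called in the main fit, the alternative or both. A change of sign between uncalled values was counted among the 5394. The 9 concern 3 genes at day 25 under library totals, limma on log2(FPKM + 1) and limma on log2(FPKM + 0.1): in this order of settings GPI had log2 changes of 0.258, 0.262 and 0.263, PKM 0.0386, 0.0442 and 0.0443, and the ubiquitin ligase subunit RBX1 0.0816, 0.0872 and 0.0876, all below 0 with TMM. The total of members called with age moved by less than 1.5 times under all alternatives run, while the 3 that rose in Ujumqin became 2 without the second or the third day 25 library (LDHB lost). The breed comparison at day 16 depended most on the fit. In place of 0 members and 3 genes in all, 1 edgeR fit over the 12 libraries called 9 and 2459, and DESeq2 called 9 and 1601. Limma-voom over the 12 libraries called 5 and 487, and the replicate block 3 and 293. A replicate block by age over 12 libraries, added after seeing the data, called 11 and 3301. Both limma fits on log2 FPKM called 0 genes there (2733 and 2755 at an unadjusted p under 0.05). With 1 library left out, 0 to 200 genes and 0 members were called at day 16. At day 25, in place of 21 members and 6716 genes, the 12-library fit called 4 and 2440 and the replicate block by age 11 and 3264. The replicate block of day 25 alone called 21 members and 6482 genes. With 1 library left out, the interaction called 4 to 15 members and 1561 to 3337 genes, in place of 9 and 2804. The causes of these changes were not tested. In the age contrasts the same numbers did not pair the libraries. The block gave 30 members and 5856 genes in Hulunbuir, 28 and 9223 in Ujumqin, and 9 and 2626 in the interaction. With it the Ujumqin calls of CA9 and ANKRD37 were lost (adjusted p 0.0533 and 0.0711). In the interaction it lost P4HA2 and gained SLC2A1 (adjusted p 0.0609 and 0.0477). The 11 shares that passed became 9 to 11 with 1 library left out.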
